A study of Mus musculus with 10 samples.

Results

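Neutrophil granule and calprotectin genes were followed in RNA sequencing libraries of sorted skeletal stromal cells. The set held 10 genes chosen by name (Mpo, Elane, Prtn3, Ltf, Camp, Ngp, Lcn2, S100a8, S100a9 and Lyz2). All 10 were among the 15078 genes of the expression table, and all 10 had a mean of at least 10 normalized read counts over the libraries, the minimum for testing. A normalized read count is a gene's reads after division by the size factor of its library.

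The 10 libraries formed 3 groups of mouse cells, all sorted as CD51+CD200+, the surface profile by which the study defines mesenchymal stem cells. BM-MSCs (n = 3) came from the bone marrow and P-SSCs (n = 3) from the periosteum of wild-type mice at steady state, with no transplantation or other treatment named. Graft BM-MSCs (n = 4) came from the marrow of femurs of POSTN-CRE transgenic mice, which had been placed under the skin of wild-type hosts that received tamoxifen, and were sorted as Tomato+ CD51+CD200+ cells 5 months after transplantation. In these femurs Cre acts in cells that use Postn, the gene for periostin, and leaves a lasting Tomato label. Postn is not specific to periosteal stem cells, since osteoblasts and fibroblasts also use it. BM-MSC 2+4 and P-SSC 2+5 each held the RNA of a pair of mice, and the labels give the 6 steady-state libraries as re-analyses of libraries that have records of their own. The study's gate also removed cells positive for CD45, Ter119 or CD31, the usual surface markers of leukocytes, red cells and endothelium.

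Neutrophils store antimicrobial proteins in granules that are filled in sequence as the cell matures in the marrow. Primary (azurophil) granules are made in promyelocytes and carry myeloperoxidase and the serine proteases, whereas specific granules are made later, in myelocytes and metamyelocytes, and carry lactoferrin, cathelicidin and lipocalin. Transcripts of these proteins are abundant in immature marrow neutrophils and decline as the cells mature, while the calprotectin genes stay active in mature cells. Lcn2 and Lyz2 are less restricted, with Lcn2 also induced in epithelium and stroma during inflammation and Lyz2 used by monocytes and macrophages.

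Depth was similar between groups, with 15415421 to 25223295 reads per library, so that 3 reads, taken as the smallest detectable amount, stood for 0.119 to 0.195 reads in 1000000 (ppm). Floors and intervals take account of counting error alone, since no molecular identifiers are named in the sources used here. Graft libraries had more genes with no read (3404 to 5770) than BM-MSC libraries (1737 to 2401) or P-SSC libraries (2010 to 2861). Genes with over 65% GC in their exons were high relative to genes of 50% to 60% GC in the 4 graft libraries and P-SSC 4, and low in the other 5 libraries, so that this difference and the graft cannot be told apart in the comparison with BM-MSCs. Cxcl12, a chemokine of marrow stroma, held 560618 to 736781 normalized read counts in grafts, 743661 to 995477 in BM-MSCs and 3503 to 7751 in P-SSCs. All 12 genes of a stromal list were detected in every library, where a listed gene counted as detected with any read, also below the 3-read floor. Their directions differed in limma (adjusted p under 0.05). In grafts against P-SSCs 6 were higher and 4 lower, where 6.08% and 12.0% of all genes were. In grafts against BM-MSCs 0 were higher and 3 lower (Pdgfrb, Col1a1 and Col1a2), where 2.61% and 5.06% were. In P-SSCs against BM-MSCs 1 was higher and 6 lower, where 4.57% and 4.58% were. Only the steady-state libraries were re-analysed ones, so that any difference tied to this and the graft cannot be told apart either. The p-values measure the spread within groups, between libraries of different mice or pairs of mice. Whether equally numbered libraries of different groups share a mouse is not known, and the main fits are unpaired.

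Granule transcripts were present in both marrow groups and scarce in the periosteum. Summed over the 10 genes, they took 27.1, 107 and 69.3 ppm of the reads in P-SSC 1, 2+5 and 4, against 1889, 3792 and 5923 ppm in BM-MSC 1, 2+4 and 3. Grafts 1, 2, 3 and 4 held 507, 981, 8084 and 623 ppm. Both marrow groups therefore lay above every P-SSC library, and the grafts ranged from below the lowest to above the highest BM-MSC library. Lcn2 and Lyz2 made up most of what was found in P-SSCs, and without these genes the P-SSC sums were 5.44, 4.46 and 0.672 ppm. In bulk RNA, fewer cells of a type and less RNA per cell cannot be told apart.

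**Figure D1:**
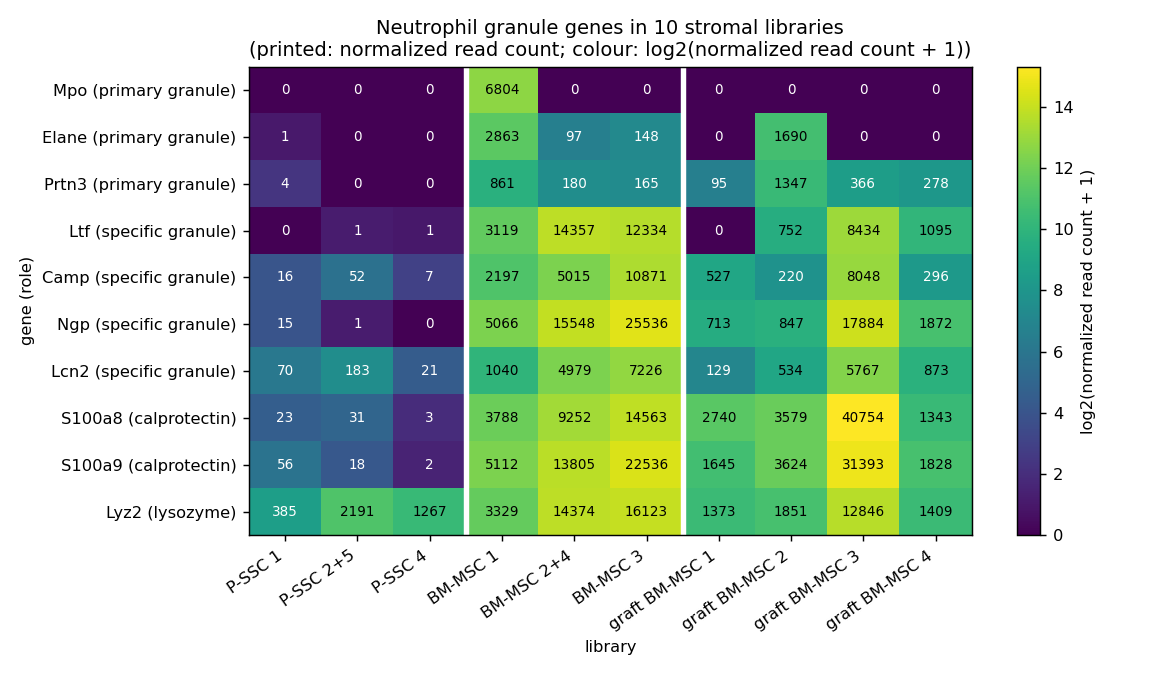
Normalized read counts of the 10 granule genes (rows, with their role in parentheses) in the 10 libraries (columns, white lines between groups), with the value printed and the colour on a log2(normalized read count + 1) scale. Most values in the 3 P-SSC columns are below 100, graft BM-MSC 3 is the brightest graft column, and Mpo is above 0 in BM-MSC 1 alone.

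Among primary granule genes, Mpo (myeloperoxidase, which makes hypochlorous acid, on chromosome 11, 87793581 to 87804413, plus strand) was read in 1 of the 10 libraries. BM-MSC 1 held 6804 normalized read counts, from 6515 reads, and the remaining 9 libraries held 0, where a count of 0 allows up to the 3-read floor. Differences are given on the log2(normalized read count + 1) scale, which understates the change of genes with low values, and passed where the Benjamini-Hochberg adjusted p over all genes tested was under 0.05 in limma. No change of Mpo passed the test in any comparison, and the difference between P-SSCs and BM-MSCs of -4.24 ± 2.72 (log2, SE, limma adjusted p = 0.535) rested on that 1 library.

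Elane (neutrophil elastase, a serine protease, on chromosome 10, 79886247 to 79888215, plus strand) was likewise uneven. BM-MSC 1, 2+4 and 3 held 2863, 97.0 and 148 normalized read counts, P-SSC 1 held 1.04 and the other P-SSCs 0. Among the grafts, graft 2 held 1690 and grafts 1, 3 and 4 held 0. Each BM-MSC library was above each P-SSC library, but the P-SSC to BM-MSC difference of -8.10 ± 2.74 (log2, SE) did not pass (limma adjusted p = 0.1099), although it did in limma without graft 2 (adjusted p = 0.00392), with quantile normalization (0.0447), in a fit of those groups alone (0.01396) and in the libraries with GC-rich genes low (0.0449). The difference between grafts and BM-MSCs was -5.76 ± 2.57 (limma adjusted p = 0.192) and became -8.44 with an adjusted p of 0.00936 in limma when graft 2 was left out. The difference between grafts and P-SSCs, 2.34 ± 2.57 (limma adjusted p = 0.554), turned to -0.34 without graft 2.

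Prtn3 (proteinase 3, which lies 3.07 kb from Elane on the same strand, at 79874476 to 79883174) was the primary granule gene found in every marrow library. BM-MSCs held 861, 180.3 and 165 normalized read counts, and grafts 1 to 4 held 95.5, 1347, 366 and 278. P-SSC 1 held 4.15 and the other P-SSCs 0. Marrow and periosteal values did not overlap, whereas the graft and BM-MSC ranges did. Prtn3 rose in grafts against P-SSCs by 7.62 ± 1.20 (log2, SE, limma adjusted p = 0.00143) and was lower in P-SSCs than in BM-MSCs, at -7.42 ± 1.29 (limma adjusted p = 0.00365), while grafts and BM-MSCs differed by 0.20 ± 1.20 (limma adjusted p = 0.945). The highest Prtn3 values fell in BM-MSC 1 and graft 2, the same libraries that held the highest Elane values.

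The specific granule genes Ltf and Ngp had the largest differences of the set between P-SSCs and BM-MSCs. Ltf (lactoferrin, an iron-binding protein, on chromosome 9, 111019271 to 111042767, plus strand) held 3119, 14357 and 12334 normalized read counts in BM-MSCs against 0, 1.27 and 0.969 in P-SSCs. With P-SSCs set to the 3-read floor of each library, this was at least 3028-fold lower in P-SSCs. The grafts spread widely, with 0 in graft 1, 752 in graft 2, 8434 in graft 3 and 1095 in graft 4. Ltf was lower in P-SSCs than BM-MSCs, at -12.28 ± 2.59 (log2, SE, limma adjusted p = 0.0119), a call that was lost without BM-MSC 2+4 (limma adjusted p = 0.0571) or BM-MSC 3 (0.0582). Grafts exceeded P-SSCs by 7.45 ± 2.43 (limma adjusted p = 0.0576), which passed without graft 1 at 10.18 (limma adjusted p = 0.000282). With all libraries it passed in edgeR (adjusted p = 0.0209), DESeq2 (1.0e-06), limma with quantile normalization (0.0227) and limma with a pseudocount of 5 (0.0411). The graft to BM-MSC difference was -4.83 ± 2.43 (limma adjusted p = 0.243).

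Ngp (neutrophilic granule protein, a cystatin-related protein, on chromosome 9, 110419747 to 110423012, plus strand) had the largest difference between grafts and P-SSCs in the set. BM-MSCs held 5066, 15548 and 25536 normalized read counts and P-SSCs 14.5, 1.27 and 0. Grafts held 713, 847, 17884 and 1872, all above every P-SSC library, with grafts 1, 2 and 4 below and graft 3 within the BM-MSC range. Ngp rose by 9.34 ± 1.22 in grafts against P-SSCs (log2, SE, limma adjusted p = 0.000452) and was lower in P-SSCs than in BM-MSCs, at -11.91 ± 1.30 (limma adjusted p = 0.000255). The graft to BM-MSC difference of -2.57 ± 1.22 did not pass (limma adjusted p = 0.217).

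Camp (cathelicidin, an antimicrobial peptide precursor, on chromosome 9, 109847379 to 109849617, minus strand) lies 570 kb from Ngp, which in turn lies 596 kb from Ltf. BM-MSCs held 2197, 5015 and 10871 normalized read counts, P-SSCs 15.6, 52.2 and 6.79, and grafts 527, 220.1, 8048 and 296. Camp rose in grafts against P-SSCs by 5.26 ± 1.19 (log2, SE, limma adjusted p = 0.0117), a call that was lost in a fit of those groups alone (limma adjusted p = 0.0591) and with the GC class of the library as a covariate (0.0685). It was lower in P-SSCs than in BM-MSCs, at -8.02 ± 1.28 (limma adjusted p = 0.00206). The graft to BM-MSC difference of -2.76 ± 1.19 did not pass (limma adjusted p = 0.180) but reached -3.92 with a limma adjusted p of 0.0271 when graft 3 was left out.

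Lcn2 (lipocalin 2, which binds bacterial siderophores, on chromosome 2, 32384633 to 32388252, minus strand) was detected in every library. BM-MSCs held 1040.2, 4979 and 7226 normalized read counts, P-SSCs 69.6, 183 and 21.3, and grafts 129, 534, 5767 and 873, so that graft 1 lay within the P-SSC range. Lcn2 was lower in P-SSCs than in BM-MSCs, at -5.66 ± 1.29 (log2, SE, limma adjusted p = 0.0183). That call was lost without P-SSC 1 (limma adjusted p = 0.0618), P-SSC 4 (0.0825), BM-MSC 2+4 (0.0812) or BM-MSC 3 (0.0932), and, with all libraries, in edgeR (0.0564) and with the GC class covariate in limma (0.0872). Grafts exceeded P-SSCs by 3.54 ± 1.21 (limma adjusted p = 0.0674), which passed without graft 1 at 4.39 (limma adjusted p = 0.0253) and, with all libraries, in DESeq2 (adjusted p = 0.000609) and in limma with quantile normalization (0.0458). The graft to BM-MSC difference was -2.12 ± 1.21 (limma adjusted p = 0.298).

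The bases before the RefSeq start site are shown for a pair of specific granule genes that were lower in P-SSCs than in BM-MSCs (Ngp, chr9:110419558-110419807, and Ltf, chr9:111019042-111019291) and a pair of primary granule genes with uneven values within the marrow groups or BM-MSCs alone (Elane, chr10:79886062-79886311, and Mpo, chr11:87793534-87793783). All are from GRCm38.p6, plus strand, 5′ to 3′, 250 bases each. Capitals mark matches to TTGCNNAA, a pattern of C/EBP factors, or to GAGGAA, a pattern of PU.1, on either strand (TTNNGCAA and TTCCTC).

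Ngp: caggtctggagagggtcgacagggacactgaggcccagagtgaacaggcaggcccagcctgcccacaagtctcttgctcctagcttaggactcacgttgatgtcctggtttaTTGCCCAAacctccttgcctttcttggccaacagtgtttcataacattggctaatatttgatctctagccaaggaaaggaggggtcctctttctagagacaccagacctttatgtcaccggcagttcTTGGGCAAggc

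Ltf: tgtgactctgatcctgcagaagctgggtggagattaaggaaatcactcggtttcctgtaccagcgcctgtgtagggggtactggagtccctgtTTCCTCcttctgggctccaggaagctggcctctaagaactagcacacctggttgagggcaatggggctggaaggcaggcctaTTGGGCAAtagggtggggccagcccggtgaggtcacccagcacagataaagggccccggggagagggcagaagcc

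Elane: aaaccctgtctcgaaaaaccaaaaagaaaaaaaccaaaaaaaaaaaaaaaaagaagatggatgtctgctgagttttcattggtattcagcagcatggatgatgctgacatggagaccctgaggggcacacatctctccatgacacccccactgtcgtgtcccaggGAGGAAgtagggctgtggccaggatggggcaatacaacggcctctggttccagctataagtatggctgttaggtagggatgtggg

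Mpo: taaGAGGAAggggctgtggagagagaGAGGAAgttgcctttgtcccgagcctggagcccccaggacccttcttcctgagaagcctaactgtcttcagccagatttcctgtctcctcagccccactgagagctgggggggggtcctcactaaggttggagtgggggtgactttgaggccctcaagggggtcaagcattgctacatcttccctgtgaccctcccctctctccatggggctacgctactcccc

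Over the 300 bases from 250 before to 50 after the start site, the C/EBP pattern was present in 4 of 10 granule gene promoters (Ngp, Ltf, Lcn2 and S100a9) and in 10.8% of 32851 RefSeq promoters. The PU.1 pattern was present in 6 of 10 and in 28.3% of all promoters. Ngp held 2 C/EBP matches and no PU.1 match, Ltf held 1 of each, Elane held 1 PU.1 match and Mpo held 2, with no C/EBP match in either of the last pair. These are matches of letters in a short window, and binding was not measured.

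S100a8 and S100a9 encode the subunits of calprotectin, a calcium-binding and metal-sequestering protein of the neutrophil cytosol. They lie 22.6 kb apart on chromosome 3 on opposite strands (S100a8 at 90668978 to 90670035, plus, and S100a9 at 90692632 to 90695721, minus). S100a8 held 3788, 9252 and 14563 normalized read counts in BM-MSCs, 22.9, 30.6 and 2.91 in P-SSCs, and 2740.0, 3579, 40754 and 1343 in grafts. S100a9 held 5112, 13805 and 22536 in BM-MSCs, 56.1, 17.8 and 1.94 in P-SSCs, and 1645, 3624, 31393 and 1828 in grafts. Both were thus highest in graft 3, above every BM-MSC library, whereas grafts 1, 2 and 4 were below every BM-MSC library. S100a8 ranked 37th and S100a9 48th among all genes of graft 3 by reads.

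Both calprotectin genes rose in grafts against P-SSCs, S100a8 by 8.39 ± 1.11 (log2, SE, limma adjusted p = 0.000500) and S100a9 by 8.20 ± 1.17 (limma adjusted p = 0.000775). Both were lower in P-SSCs than in BM-MSCs, S100a8 at -9.12 ± 1.19 (limma adjusted p = 0.000639) and S100a9 at -9.64 ± 1.25 (limma adjusted p = 0.000634). Between grafts and BM-MSCs the differences were -0.73 ± 1.11 (limma adjusted p = 0.707) for S100a8 and -1.44 ± 1.17 (limma adjusted p = 0.467) for S100a9. The direction of S100a8 against BM-MSCs depended on the fit, at 0.38 with edgeR and 0.39 with DESeq2, and its mean was 12104 normalized read counts in grafts and 9201 in BM-MSCs. The GC class of the library as a covariate gave 2.08 for S100a8 and 2.04 for S100a9 (limma adjusted p = 0.872 for both). Its effect was estimated from P-SSC 4 against the other P-SSCs alone. P-SSC 4 held 3 reads of S100a8 and 2 of S100a9, so that these values rest on few reads.

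Lyz2 (lysozyme, which cleaves bacterial cell walls, on chromosome 10, 117277331 to 117282321, minus strand) was the granule gene with the highest level in P-SSCs. BM-MSCs held 3329, 14374 and 16123 normalized read counts, P-SSCs 385, 2191 and 1267, and grafts 1373, 1851, 12846 and 1409. BM-MSC and P-SSC values did not overlap, whereas grafts 1, 2 and 4 lay within the P-SSC range. None of the differences passed: -3.16 ± 0.95 for P-SSCs against BM-MSCs (log2, SE, limma adjusted p = 0.0699), 1.35 ± 0.89 for grafts against P-SSCs (0.326) and -1.82 ± 0.89 for grafts against BM-MSCs (0.233). The first of these passed without graft 3 at -3.16 (limma adjusted p = 0.0248) and, with all libraries, in DESeq2 (adjusted p = 0.00999) and in limma with quantile normalization (0.0257). Reads of Lyz2 and its close copy Lyz1 may be divided in counting, and Lyz1 held 0 in the 3 BM-MSC libraries and at most 70.1 normalized read counts elsewhere, in P-SSC 2+5.

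Counted over the set, 5 of 10 genes rose in grafts against P-SSCs (S100a8, S100a9, Ngp, Camp and Prtn3) and none fell, where 6.08% of 13644 genes tested rose. Over all genes 830 rose and 1634 fell, and with quantile normalization 1247 rose and 1241 fell. The same 5 genes were those whose graft and P-SSC values did not overlap, which held in that direction for 8.06% of all genes. The median log2 difference of the 10 was 6.35, against -0.47 over all genes. Leaving out graft 3, the library with the highest sum, kept the same 5 calls. edgeR called 6 of the 10, and DESeq2 and quantile normalization in limma called 7 each.

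In P-SSCs against BM-MSCs, 7 of 10 were lower (Ltf, Lcn2, S100a8, S100a9, Ngp, Camp and Prtn3) and none was higher, against 4.58% of all genes that were lower. All but Mpo had every P-SSC value below every BM-MSC value, as did 15.8% of all genes, and the median was -8.06 against 0.00. Within the 5 libraries in which GC-rich genes were low (3 BM-MSC, 2 P-SSC), 8 passed. edgeR called 6, DESeq2 8 and quantile normalization in limma 9.

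Between grafts and BM-MSCs, 0 of 10 passed in limma, against 7.67% of all genes that differed in either direction. These were 356 higher and 690 lower genes, or 588 higher and 435 lower with quantile normalization and 913 higher and 1024 lower with DESeq2. At an unadjusted p under 0.05 there were 2 (Camp and Elane). edgeR called 0, with 1 at an unadjusted p under 0.05, and DESeq2 called 0, with 0. No gene of the set had all graft values below all BM-MSC values, as 14.7% of all genes did, and the median difference was -2.35 against -0.53. The median of all genes was -0.05 with edgeR and -0.04 with DESeq2 in this comparison, and -0.17 with quantile normalization. In grafts against P-SSCs it was 0.03, -0.04 and -0.02 in the same order. The graft values were spread widely, at 12104 ± 19122 normalized read counts for S100a8 and 5329 ± 8386 for Ngp (mean ± SD, n = 4).

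**Figure D2:**
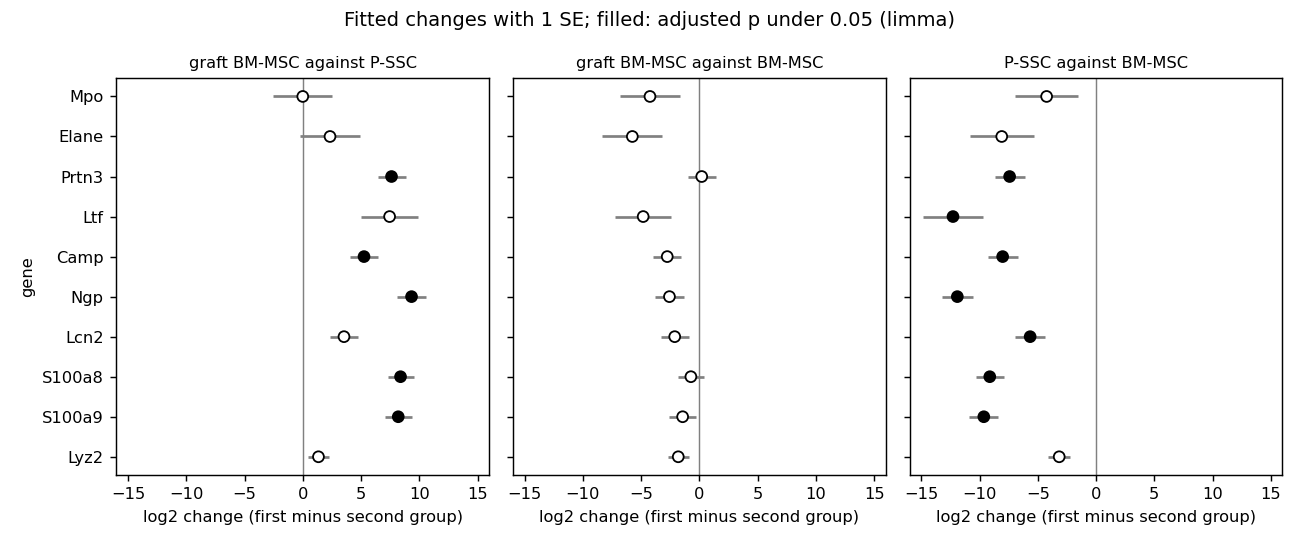
Log2 differences of the 10 granule genes between groups (x axis, first group minus second, 1 panel per comparison), with bars of 1 SE from the limma fit and filled points for adjusted p under 0.05. In grafts against P-SSCs 5 points are filled, in grafts against BM-MSCs 0, and in P-SSCs against BM-MSCs 7.

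The make-up of the granule reads differed between libraries. Specific granule genes took 33.4%, 51.4% and 51.1% of the reads of the set in BM-MSC 1, 2+4 and 3, and 19.0%, 16.3%, 32.0% and 46.0% in grafts 1 to 4. Calprotectin genes took 26.0%, 29.7% and 33.9% in BM-MSCs and 60.7%, 49.9%, 57.5% and 35.3% in grafts. Every graft was thus above every BM-MSC library in its calprotectin share, although graft 4 (95% Wilson interval 34.3% to 36.2%) was close to BM-MSC 3 (33.6% to 34.2%). These shares were computed after the values of the genes had been seen and are given without a test.

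Primary granule genes made up 30.8% of the set in BM-MSC 1 and 21.0% in graft 2, but 0.357% and 0.286% in BM-MSC 2+4 and 3, and 1.32%, 0.291% and 3.09% in grafts 1, 3 and 4. In P-SSCs the reads of the set were mostly Lyz2, with 67.7%, 88.4% and 97.4%, against 9.74% to 18.5% in BM-MSCs and 10.2% to 19.0% in grafts. Libraries with a high total were not those with a high primary granule share, since graft 3, with 124613 reads of the set, held 0.291%.

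Ratios of genes within a library differed as well. Reads of S100a8 over S100a9 were 0.741, 0.670 and 0.646 in BM-MSCs and 1.67, 0.987, 1.30 and 0.735 in grafts 1 to 4. Reads of S100a8 over Ltf were 1.21, 0.644 and 1.18 in BM-MSCs and 4.76, 4.83 and 1.23 in grafts 2, 3 and 4, and graft 1 had S100a8 but no Ltf read.

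**Figure D3:**
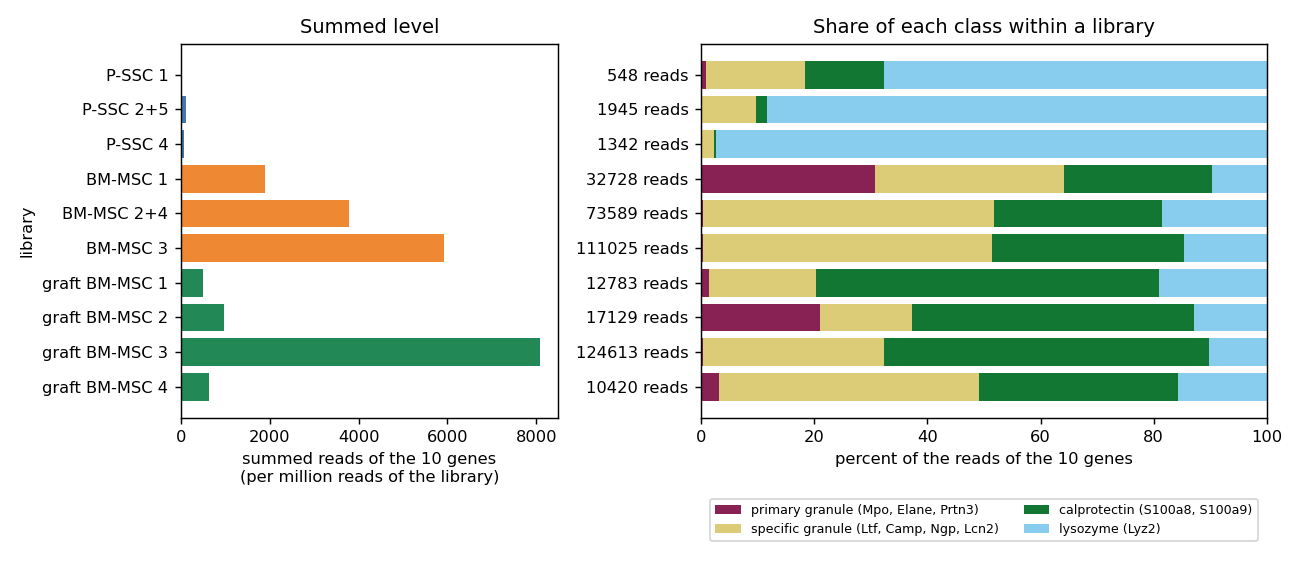
Left, summed reads of the 10 granule genes in each library, in ppm. Right, the percent of those reads taken by primary granule, specific granule, calprotectin and lysozyme genes, with the number of reads of the set beside each bar. BM-MSC 1 and graft BM-MSC 2 have wide primary granule bars, lysozyme fills most of the P-SSC bars, and graft BM-MSC 3 has the highest sum, 8084 ppm.

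Corrected for exon length (RPKM, the ppm divided by the exon length in kilobases), S100a9 had the highest level of the set in every BM-MSC library, at 541, 1292 and 2335 RPKM, and in grafts 2, 3 and 4, at 471, 3874 and 242 RPKM. In graft 1, S100a8 was higher, at 277 RPKM against 221 RPKM for S100a9. Ngp reached 229, 622 and 1130 RPKM in BM-MSCs and Ltf, with longer exons, 49.98, 203 and 193 RPKM. In P-SSCs the highest level was Lyz2, at 14.0, 71.9 and 51.3 RPKM.

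Further granule genes, from lists assembled for the same cell type, were examined beside the set. Of 13 partners of specific and gelatinase granules tested, 6 rose in grafts against P-SSCs (Mmp8, Mmp9, Hp, Pglyrp1, Cybb and Wfdc21). None passed between grafts and BM-MSCs, and 10 were lower in P-SSCs than in BM-MSCs. Over all genes, 6.08% rose, 7.67% differed in either direction and 4.58% were lower, in the same order. The median differences of the partners were 5.78, -1.03 and -8.84 on the log2 scale. Mmp9 (gelatinase B) held 1531, 3877 and 2666 normalized read counts in BM-MSCs, 0, 0 and 5.82 in P-SSCs, and 1541, 1697, 1542 and 979 in grafts, a far narrower graft range than that of the calprotectin genes. Chil3 (a chitinase-like protein of immature neutrophils) held 968, 2762 and 4684 in BM-MSCs, 0 in every P-SSC library, and 3072 in graft 3 with 0 in grafts 1, 2 and 4. Hp (haptoglobin, a granule protein that is also an acute-phase protein of other tissues) was of another order of size, at 257652 to 327759 in BM-MSCs and 91423 to 306676 in grafts, against 15.5 to 286 in P-SSCs.

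Of 5 primary granule partners tested, none rose in grafts against P-SSCs and 1 fell, where 12.0% of all genes fell, and none passed in the other comparisons. The gene that fell was Prss57, a serine protease, with 84.3 to 95.6 normalized read counts in P-SSCs and 0 in every graft. Ctsg (cathepsin G) held 376, 36.9 and 0 in BM-MSCs and 698 in graft 2, with 0 in the other grafts and in P-SSCs. Its highest values were in BM-MSC 1 and graft 2, as for Elane and Prtn3. No other listed partner had its highest graft value in graft 2. Serpinb1a held 0 there and 479 in graft 3, and Ctsc held 153 there and 303 in graft 4. The median differences of the list were -1.58, -2.60 and -2.92.

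Genes of the neutrophil surface and of late maturation were scarcer. The 18 listed genes in the table summed to 86.1 to 279 ppm in BM-MSCs (14 to 18 genes detected), 0 to 3.96 ppm in P-SSCs (0 to 2 detected) and 5.71 to 551 ppm in grafts (1 to 16 detected). Of 17 tested, 2 rose in grafts against P-SSCs (Retnlg, a resistin-like gene of neutrophils, and Ltb4r1, the leukotriene B4 receptor), none passed against BM-MSCs, and 4 were lower in P-SSCs than in BM-MSCs (Itgam, Retnlg, Trem3 and Ltb4r1). Over all genes, 6.08% rose, 7.67% differed in either direction and 4.58% were lower, in the same order. The median differences of the list were 2.39, -2.80 and -6.15. Ly6g, the gene of the neutrophil antigen Ly6G, held 95.04, 253 and 168 normalized read counts in BM-MSCs, 748 in graft 3, and 0 in grafts 1, 2 and 4 and in every P-SSC library. Csf3r, the G-CSF receptor, held 38.6, 204 and 260.4 in BM-MSCs, 445 in graft 3, 176 in graft 4, and 0 elsewhere. The highest graft values of both surface genes and of 7 granule genes were thus in graft 3.

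Transcription factors of granulocyte development were divided. Of 8 tested, 3 rose in grafts against P-SSCs (Cebpa, Cebpb and Runx1) and Klf4 fell, where 6.08% of all genes rose and 12.0% fell. Of the same 8, 3 were higher in grafts than in BM-MSCs (Cebpb, Cebpd and Runx1), where 2.61% of all genes were higher. The 8 genes summed to 567 to 1002 ppm in the grafts and 647 ppm in P-SSC 4, the libraries in which GC-rich genes were high, and to 67.4 to 94.7 ppm in the other 5 libraries. The graft and the GC class cannot be told apart against BM-MSCs. Cebpe, the factor of the specific granule stage, held 23.0, 84.4 and 149 normalized read counts in BM-MSCs, 94.7 in graft 3, and 0 in all other libraries, and none of its differences passed. Spi1, which encodes PU.1, held 107, 46.4 and 160 in BM-MSCs, 196 and 402 in grafts 2 and 3, 0 in grafts 1 and 4, and at most 2.55 in P-SSCs. Cebpb, by contrast, held 1416 to 2625 in all 4 grafts and 4.18 to 16.9 in BM-MSCs. Against BM-MSCs, Klf4 was higher and Runx1 lower in P-SSCs, where 4.57% of all genes were higher and 4.58% lower. The median differences were 4.04, 1.92 and -3.32. Cebpa, Cebpb, Cebpd and Klf4 are also used by stromal and fat-forming cells.

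Receptors of granule proteins were measured in the same libraries. Of 6 tested, Ager (the receptor RAGE, which binds S100 proteins) rose in grafts against P-SSCs and was lower in P-SSCs than in BM-MSCs, with 742 to 1357 normalized read counts in BM-MSCs, 240 to 522 in grafts and 0 in P-SSCs. Lrp1, a scavenger receptor that takes up lactoferrin, fell in grafts against P-SSCs and was higher in P-SSCs than in BM-MSCs, at 20367 to 32758 in P-SSCs, 6895 to 11130 in BM-MSCs and 7337 to 15654 in grafts. Tlr4, a receptor for calprotectin, held 217 to 827 over the 10 libraries and did not pass. The median differences of the list were 2.19, -0.66 and -1.90, and none of its genes passed between grafts and BM-MSCs. Over all genes, 6.08% rose and 12.0% fell in grafts against P-SSCs, and 7.67% differed between grafts and BM-MSCs. In P-SSCs against BM-MSCs, 4.57% of all genes were higher and 4.58% lower.

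The sum of the pan-leukocyte genes was, like that of the granule genes, higher in both marrow groups than in P-SSCs, and their part in the result was not tested. Arhgdib had the highest mean of the list in each group, at 3752 normalized read counts in grafts, 2690 in BM-MSCs and 240 in P-SSCs. Not every listed gene went with the sum, since Tyrobp differed by -0.02 ± 2.05 (log2, SE) in grafts against P-SSCs. Ptprc, the gene of CD45, held 16.7, 78.0 and 62.1 normalized read counts in BM-MSCs, 196 in graft 3, 2.59 in graft 4, and 0 in grafts 1 and 2 and in P-SSCs. The 12 pan-leukocyte genes summed to 423 to 591 ppm in BM-MSCs (12 detected in each), 21.5 to 33.6 ppm in P-SSCs and 331 to 922 ppm in grafts (7 to 12 detected), and graft 3 was again the highest. Of these 12, 4 rose in grafts against P-SSCs, none passed against BM-MSCs and 5 were lower in P-SSCs than in BM-MSCs. Over all genes, 6.08% rose, 7.67% differed in either direction and 4.58% were lower, in the same order. The median differences of the 12 were 2.84, -3.00 and -6.08.

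The 11 red cell genes summed to 3127 to 12510 ppm in BM-MSCs, 12.5 to 76.5 ppm in P-SSCs and 126 to 1908 ppm in grafts. Of 11 tested, 4 rose in grafts against P-SSCs and 9 were lower in P-SSCs than in BM-MSCs, against 6.08% and 4.58% of all genes. Another 3 calls were lower in grafts than in BM-MSCs (Hba-a1, Slc4a1 and Car2), where 5.06% of all genes were lower. The highest red cell sum among grafts was in graft 2, not in graft 3. The 13 macrophage genes summed to 39.5 to 115 ppm in BM-MSCs, 3.82 to 25.9 ppm in P-SSCs and 1.60 to 38.3 ppm in grafts. Adgre1, the gene of the macrophage antigen F4/80, was at 0 in every graft. Of 9 macrophage genes tested, none passed in grafts against P-SSCs, C1qb and Spic were lower in grafts than in BM-MSCs, and Spic was lower in P-SSCs than in BM-MSCs. The 8 B cell genes summed to 19.7 to 81.9 ppm in BM-MSCs, 11.4 to 39.8 ppm in P-SSCs and 14.7 to 67.7 ppm in grafts. Of 6 tested, Igkc rose in grafts against P-SSCs, and Cd79b and Igkc were lower in P-SSCs than in BM-MSCs. The macrophage and B cell calls stand beside the same shares of all genes. These were 6.08% higher in grafts than in P-SSCs, 5.06% lower in grafts than in BM-MSCs, and 4.58% lower in P-SSCs than in BM-MSCs. The 7 endothelial genes summed to at most 19.1 ppm in grafts and at most 32.2 ppm in BM-MSCs, and to 183 to 339 ppm in P-SSCs, where Tek had the highest values. Of 6 tested, Tek fell in grafts against P-SSCs and was higher in P-SSCs than in BM-MSCs, where 12.0% and 4.57% of all genes did so. Emcn and Tie1 went the other way. Both were 0 in P-SSCs and in grafts, with means of 52.3 and 115 normalized read counts in BM-MSCs. Both were called lower in P-SSCs and in grafts than in BM-MSCs, where 4.58% and 5.06% of all genes were.

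**Figure D4:**
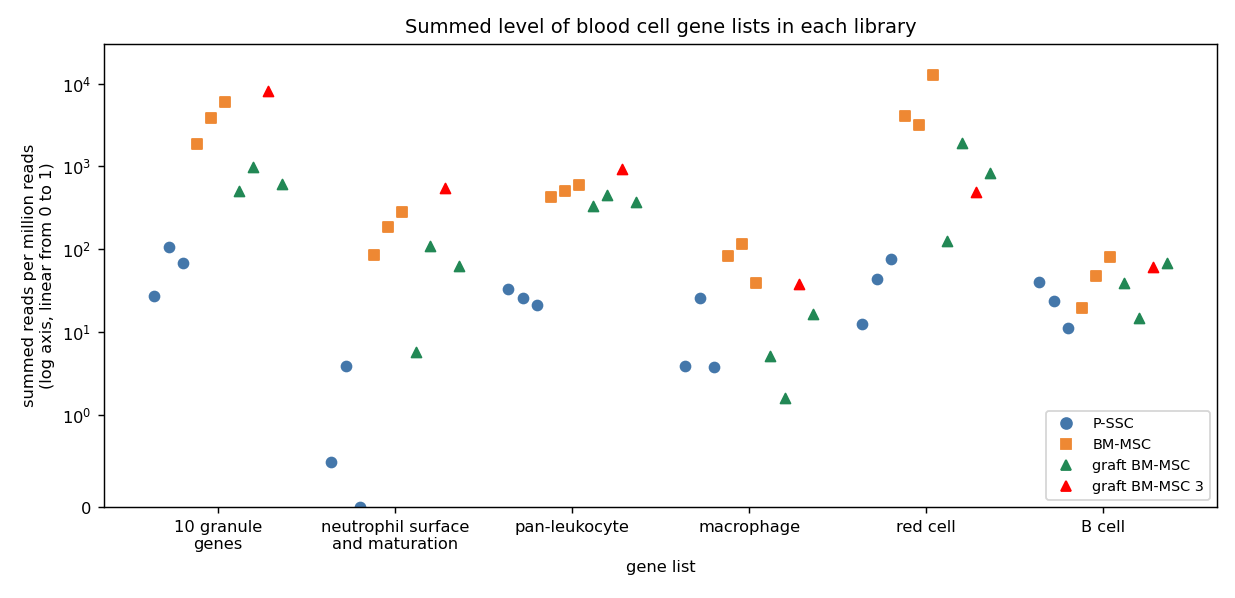
Summed ppm of the 10 granule genes and of 5 lists of blood cell genes in each library (y axis logarithmic, linear from 0 to 1), with groups by colour and shape and graft BM-MSC 3 in red. Graft BM-MSC 3 is the highest graft for granule, neutrophil surface and pan-leukocyte genes, at 8084, 551 and 922 ppm, and not for red cell genes.

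Acute-phase genes known from stromal cells, a list that holds Lcn2, gave no common direction. Of 10 tested, 3 rose in grafts against P-SSCs (Saa3, Hp and Steap4) and C3 fell, where 6.08% of all genes rose and 12.0% fell. Against BM-MSCs, Il6 was higher and Lbp lower in grafts, where 2.61% of all genes were higher and 5.06% lower. In P-SSCs, C3, Cxcl1 and Il6 were higher than in BM-MSCs, and Lcn2, Saa3, Hp and Steap4 were lower. Over all genes, 4.57% were higher and 4.58% lower in that comparison. Saa3, a serum amyloid gene that is often induced together with Lcn2, was highest in grafts 2 and 3, at 2464 and 1946 normalized read counts, against 217 to 854 in BM-MSCs and at most 36.9 in P-SSCs.

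Genes with the pattern most like the granule genes were found by Pearson correlation of log2(value + 1) over the 10 libraries, which fall into 3 groups, so that any gene that differs between marrow and periosteum ranks high. For the sum of the 8 genes other than Lcn2 and Lyz2, Rasa4 was first among 9536 genes (r = 0.988), followed by Hvcn1 (0.975), Wfdc21 (0.974), Exoc3l4 (0.972) and Septin4 (0.972). Rasa4 held 894 to 1123 normalized read counts in BM-MSCs and 38.8 to 132 in P-SSCs. Lcn2 was most like Tnfrsf1a (0.943), Rasa4 (0.941), Slc2a3 (0.927), Slpi (0.923) and Mrps18b (0.912), and Lyz2 most like Pbx2 (0.899), Chil3 (0.892), Ly6g (0.887), Cd14 (0.877) and Itgb2 (0.874).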

How the data were processed

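Poly-A RNA of sorted cells was sequenced in 10 libraries. The submitters' processing notes name cutadapt 1.15, STAR 2.5, featureCounts of Subread 1.4.6, DESeq2 1.26.0 and GRCm39, whereas the study's methods name GRCm38. Strand setting and annotation release are not given in the sources used here. The authors deposited a table of 1 signal value per gene and library, the read count divided by a size factor. Dividing by the step of each library gave whole reads for 100% of values (tolerance 0.01), and genes with fewer than 22 reads in all were not analysed here.

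Fits used limma 3.58.1 and the genes whose mean reached 10, on log2(value + 1), with 1 mean per group over all 10 libraries (7 residual degrees of freedom, variance trend), two-sided, with Benjamini-Hochberg adjustment over 13644 genes and a threshold of 0.05. The fits were tested on simulated data. edgeR 4.0.16 (quasi-likelihood, TMM) and DESeq2 1.42.0 on the recovered reads were alternatives, as were pseudocounts of 0.1 and 5, no filter, quantile normalization, a fit of 2 groups, a GC class covariate, a replicate block and leaving out each library. The granule genes and the lists were chosen with earlier results of these data known. By rule, the text names the set, up to 4 genes per list with the highest means, granule, maturation and factor genes that passed, and the 5 most correlated genes with a mean of at least 100. Other genes, among them Ptprc, Ly6g, Csf3r, Cebpe, Spi1, Adgre1, Lyz1, Spic, Slc4a1, Saa3 and Il6, were chosen after their values were seen. A gene of the macrophage list was left out of its sums and counts and is not reported here. Groups came from the sample labels. Gene positions are from GENCODE M21 on GRCm38 and promoters from RefSeq on GRCm38.p6, and the deposited table holds no coordinates. Overlapping genes may share reads.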

Additional observations from a re-analysis of the deposited data

Results flagged for a closer look

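In 9 values of the graft group (n = 4), the highest library stood far from the next. The gap, as a share of the group's range, was above Dixon's 95% critical value. Chance reaches that value in about 1 in 20 groups of normally distributed values. The values were taken without logs, so that this rate need not hold here. Graft 2 was the highest library for Elane, at 1690 normalized read counts, with grafts 1, 3 and 4 at 0. Graft 3 was that library for Ltf (8434), Camp (8048), Ngp (17884), Lcn2 (5767), S100a8 (40754), S100a9 (31393) and Lyz2 (12846), and for the summed share of the set, 8084 ppm. These values come from the same libraries and genes that vary together, so they are not independent of each other.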

How the results depend on the processing

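Of 580 values of single genes under alternatives, 536 kept their direction and side of the threshold, 17 passed newly, 20 no longer passed and 7 turned direction. Those 7 were Elane in grafts against P-SSCs without graft 2 (-0.34) and, in grafts against BM-MSCs, Lcn2 with the GC class covariate (0.23), S100a8 with edgeR (0.38), DESeq2 (0.39), the replicate block (0.65) and the GC class covariate (2.08), and S100a9 with that covariate (2.04). The cause was not tested, and the effect of the GC class covariate was estimated within P-SSCs alone. Without 1 library, the Elane difference in grafts against P-SSCs ranged from -0.34 to 3.23. Of the set, 5 genes passed in grafts against P-SSCs, 0 in grafts against BM-MSCs and 7 between the steady-state groups. Leaving out 1 library gave 5 to 7, 0 to 1 and 5 to 8. Without Lcn2 and Lyz2 the set summed to 3.52 ppm on average in P-SSCs.

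Genes called numbered 2464, 1046 and 1248 in the same order. edgeR called 1531, 316 and 619, DESeq2 1937 in grafts against BM-MSCs, and the GC class covariate 1081 and 40 in the graft comparisons. Leaving out 1 library gave 1583 to 3005, 476 to 1584 and 917 to 1495. An alternative chosen after seeing the data, P-SSCs against BM-MSCs in libraries with GC-rich genes low, called 2040. Correlations of same-numbered libraries were -0.02 to 0.03, which cannot show whether equal numbers stand for the same mouse. The replicate block called 269, 3 and 54 genes, of which 2, 0 and 0 were of the set. P-SSC 2+5, BM-MSC 2+4 and graft 2 each had a replicate label that no other library shared. The block thus left few residual degrees of freedom, and calls lost with it do not show that a difference is absent. Values of a few reads in P-SSCs and of 0 in grafts are limited by depth.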
